A study of Mus musculus with 6 samples.

Results

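The genes described here are 10 mouse genes for CC chemokines that attract monocytes and for their receptors: the ligands Ccl2, Ccl7, Ccl8, Ccl12, Ccl3, Ccl4, Ccl6 and Ccl9, and the receptors Ccr1 and Ccr2. They were chosen by gene name, and all 16 probe sets annotated to them were taken, out of 45101 probe sets and 18193 genes on the array. RNA came from colon of C57BL/6 mice aged 6 to 8 weeks. All groups had received a rectal injection of ethanol, and the tissue was taken 24 h later. The groups were GPR41 KO, which lack the short-chain fatty acid receptor encoded by Ffar3, GPR43 KO, which lack the related receptor encoded by Ffar2, and wild type (WT), with 2 arrays each. The labels name no allele, deleted part or Cre driver for either knockout, and colon of mice without ethanol was not analysed here, so genotypes are compared after the injection alone. Nothing in the labels tells if the arrays of a group are separate animals. The p-values may therefore measure technical spread between these samples only.

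CC chemokines are small secreted proteins that bind G protein-coupled receptors on leukocytes and draw those cells along a gradient. Ccl2, Ccl7 and Ccl12 bind Ccr2, which blood monocytes use to leave the bone marrow and to enter inflamed tissue, while Ccl3, Ccl6, Ccl7 and Ccl9 bind Ccr1 on monocytes and neutrophils. In the colon, monocytes that enter in this way replenish the resident macrophages, and more of them enter when the epithelium is injured. Macrophages, neutrophils, fibroblasts and endothelial cells can all make these ligands, so in a bulk colon sample fewer cells of a type and less RNA per cell cannot be told apart.

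The targeted gene went against the label of 1 library. The library labelled GPR43 KO replicate 1 had an Ffar2 signal of 1598, and GPR43 KO replicate 2 one of 189, against 1194 and 1118 in WT, so that library is named by its label throughout, and the GPR43 KO values of the 10 genes against WT are also given without it. The second Ffar2 probe set gave 1142 for that library and 76.3 for GPR43 KO replicate 2, against 840 and 757 in WT. Both probe sets thus differed between the libraries of this label, and whether the label is right was not tested. The sources used here do not give the deleted part, so whether the probe sets lie inside it is not known. No probe set carried the symbol Ffar3, which leaves the label of GPR41 KO unchecked. Median signals of the arrays lay between 80.9 and 96.8, and the 3' to 5' ratio of Gapdh, a sign of RNA integrity, between 0.778 and 0.858. Colon epithelium markers were present in every array: the 14 listed genes, Cdx1, Vil1 and Muc2 among them, summed to 373380 to 382093 in GPR41 KO, 390267 to 432900 in GPR43 KO and 287868 to 325119 in WT.

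The 8 ligand genes lie in 2 clusters on chromosome 11 (GRCm38.p6). Ccl2 (82035577 to 82037452), Ccl7 (82045712 to 82047525), Ccl12 (82101845 to 82103399) and Ccl8 (82115185 to 82116799) span 81.2 kb. Ccl9 (83572917 to 83578636), Ccl6 (83587886 to 83593087), Ccl3 (83647843 to 83649378) and Ccl4 (83648624 to 83664683) span 91.8 kb, and the annotated Ccl3 and Ccl4 overlap. The receptor genes lie on chromosome 9, Ccr1 at 123962126 to 123968692 and Ccr2 at 124101918 to 124109140. Within each cluster some neighbours fell in both knockouts and others did not, as described below the sequences. RefSeq promoter sequences were matched for 7 of the 10 genes: Ccl3, Ccl6, Ccl8, Ccl9, Ccl12, Ccr1 and Ccr2. The 250 bases before the start are printed for 4 of them, because Ccl9 fell while its neighbour Ccl6 did not pass the test, Ccl3 had the lowest share of its WT signal, and Ccl8 differed most between the knockouts. Capitals mark matches, on either strand, to the motifs searched. One was a consensus of the inflammatory factor NF-kB. Another was AP-1, the letters TGANTCA bound by dimers of Fos and Jun. The letters TTGCNNAA stood for the C/EBP family, which includes Cebpb. The letters TTCNNNGAA stood for STAT factors, which act downstream of cytokine receptors. The letters GGAAGT stood for ETS factors such as the myeloid regulator PU.1. The letters TATAAA stood for the TATA box of the core promoter.
Ccl9, chr11:83578637-83578886, minus strand: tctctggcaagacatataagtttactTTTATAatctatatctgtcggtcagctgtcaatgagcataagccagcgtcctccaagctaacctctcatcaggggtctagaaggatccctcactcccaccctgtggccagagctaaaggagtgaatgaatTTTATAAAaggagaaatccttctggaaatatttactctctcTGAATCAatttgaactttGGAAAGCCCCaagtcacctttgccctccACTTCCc
Ccl6, chr11:83593088-83593337, minus strand: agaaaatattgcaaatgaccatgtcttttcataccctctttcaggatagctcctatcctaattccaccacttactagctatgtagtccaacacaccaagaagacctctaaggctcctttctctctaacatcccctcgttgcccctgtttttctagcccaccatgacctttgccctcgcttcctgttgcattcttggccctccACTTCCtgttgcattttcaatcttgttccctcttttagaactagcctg
Ccl3, chr11:83649379-83649628, minus strand: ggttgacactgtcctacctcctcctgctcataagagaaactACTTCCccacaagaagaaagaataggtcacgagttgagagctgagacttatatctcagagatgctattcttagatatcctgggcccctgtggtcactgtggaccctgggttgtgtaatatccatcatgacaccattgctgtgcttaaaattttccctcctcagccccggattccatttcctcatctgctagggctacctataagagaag
Ccl8, chr11:82114935-82115184, plus strand: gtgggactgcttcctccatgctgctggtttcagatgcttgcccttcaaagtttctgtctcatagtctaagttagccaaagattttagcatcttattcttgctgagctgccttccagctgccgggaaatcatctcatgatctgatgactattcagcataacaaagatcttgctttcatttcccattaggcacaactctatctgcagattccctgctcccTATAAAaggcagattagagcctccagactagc

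The window of Ccl9 held the NF-kB match, beginning 35 bases before the start, an AP-1 match at 53, an ETS match at 7 and 3 TATA matches at 224, 94 and 92 bases, of which the last 2 overlap on opposite strands. The window of its neighbour Ccl6 held an ETS match at 48 bases and none of the other motifs. In Ccl3 an ETS match lay at 209 bases, and in Ccl8 a TATA match lay at 32 bases. Ccl12, which is not printed, had a TATA match at 31 bases and 2 ETS matches, at 228 and 14 bases. Its last 100 bases before the start aligned to those of Ccl8 with 58.9% identity. Neither receptor window had a match, and C/EBP and STAT had none in any of the 7. The Ccr2 window (124101933 to 124102182, plus strand) lies inside the annotated gene. It therefore does not cover the bases before the Ccr2 start given above. Among all 32851 promoter windows of this length, 3.9% held the NF-kB consensus, 6.75% AP-1, 9.56% C/EBP, 7.02% STAT, 19.7% ETS and 12.4% TATA. A match describes letters in the window and is not shown to be a bound site.

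Of the 10 genes, 9 passed the filter on mean signal over all arrays and were tested, and in both knockouts the same 5 fell and none rose. The 5 were Ccl2, Ccl7, Ccl4, Ccl9 and Ccr1, and Ccl8, Ccl12, Ccl6 and Ccr2 did not pass the test. Ccl3 was left out by the filter on weak genes and is given from a fit with no filter. The filter favours genes high in 1 group. Ccl7 had 47.3 to 114 in the knockout arrays, below the cutoff of 126, and passed through its WT signals of 1016 and 1984. The counts with no filter, given below, do not depend on it. In GPR41 KO against WT, 3.11% of all 10916 tested genes were called lower and 1.85% higher at an adjusted p under 0.05 (limma on log2(signal + 18), Benjamini-Hochberg). In GPR43 KO against WT, 2.41% were called lower and 1.55% higher. The comparisons share the WT arrays, so they are not independent of each other. With no filter, where 1.65% and 1.29% of 18193 genes were called lower and 0.83% and 0.66% higher in GPR41 KO and GPR43 KO, 6 of the 10 genes fell in each knockout, the 6th being Ccl3. Without the library labelled GPR43 KO replicate 1, GPR43 KO is a single array whose spread is taken from the other groups. The log2 fold changes in GPR43 KO were then -4.11 for Ccl2, -4.46 for Ccl7, -3.96 for Ccl4, -1.47 for Ccl9 and -2.09 for Ccr1.

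**Figure D1:**
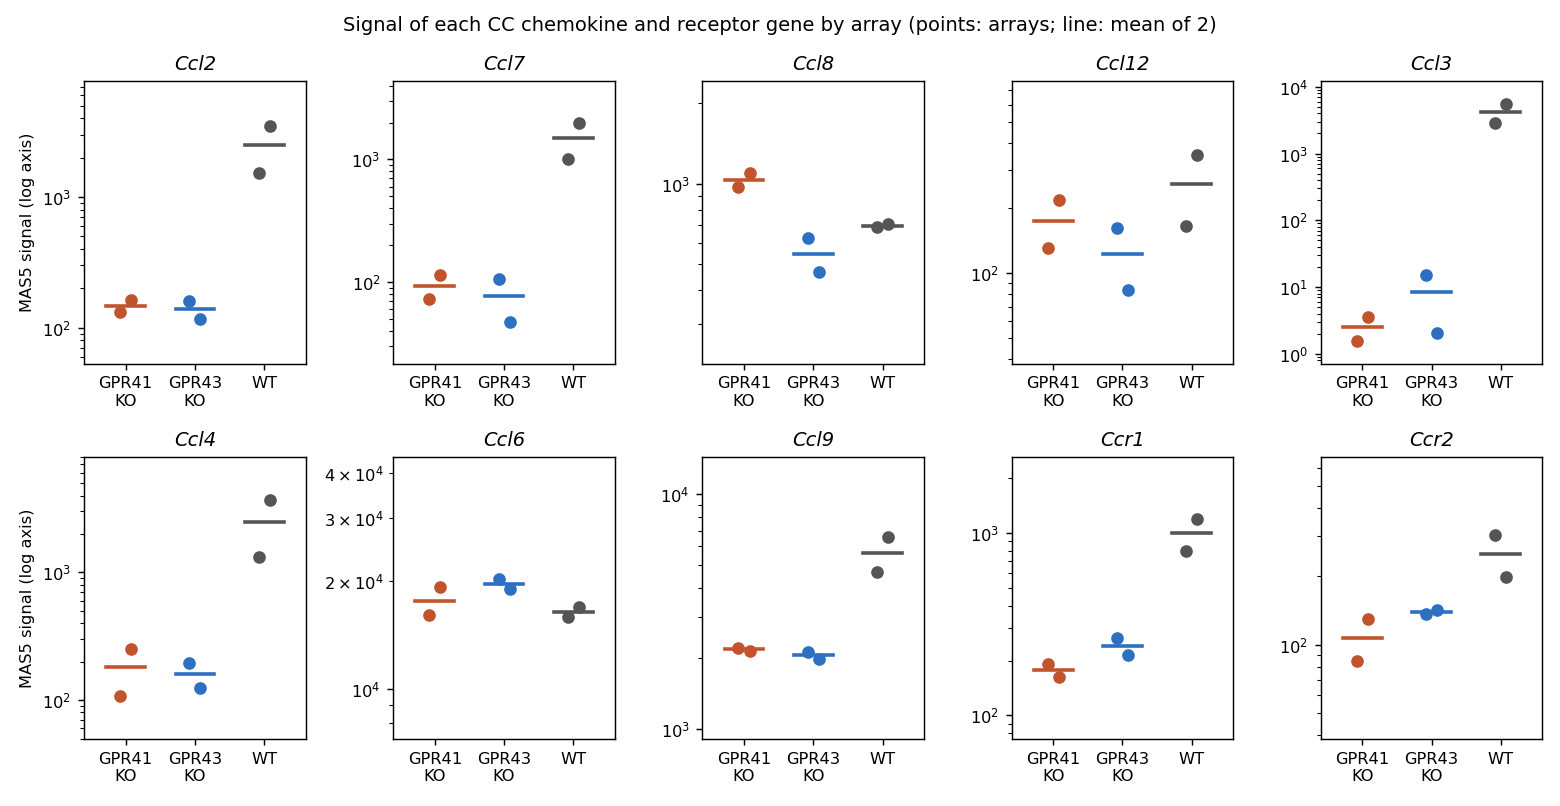
Signal of each of the 10 genes in every array on a log axis, with the 2 arrays of each group as points, their mean as a line, and GPR41 KO, GPR43 KO and WT from left to right. For Ccl2, Ccl3, Ccl4, Ccl7, Ccl9 and Ccr1 all 4 knockout arrays lie below both WT arrays, while for Ccl6 all arrays lie between 15877 and 20193.

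Ccl2, the main ligand of Ccr2 and the best known monocyte attractant, had signals of 133 and 163 in GPR41 KO, while the library labelled GPR43 KO replicate 1 had 159 and GPR43 KO replicate 2 had 117, against 1523 and 3505 in WT. All 4 knockout arrays lay far below both WT arrays, and the WT arrays themselves differed 2.30-fold. The mean in GPR41 KO was 5.87% of the WT mean, with a log2 fold change of -3.82 ± 0.35 (SE, n = 2 arrays a group, limma adjusted p = 0.000897). In GPR43 KO it was 5.49% of the WT mean, with a log2 fold change of -3.91 ± 0.35 (limma adjusted p = 0.00136) and of -4.11 without the library labelled GPR43 KO replicate 1.

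Ccl7, its neighbour 8260 bases away, is a ligand of both Ccr2 and Ccr1. It had signals of 72.9 and 114 in GPR41 KO, while the library labelled GPR43 KO replicate 1 had 106 and GPR43 KO replicate 2 had 47.3, against 1016 and 1984 in WT. As for Ccl2, the knockout arrays did not overlap with the WT arrays, and WT replicate 2 was the higher of the WT arrays. Ccl7 fell to 6.23% of the WT mean in GPR41 KO (log2 -3.71 ± 0.41, limma adjusted p = 0.00181) and to 5.11% in GPR43 KO (log2 -4.00 ± 0.41, limma adjusted p = 0.0015). Leaving out the library labelled GPR43 KO replicate 1, the log2 fold change in GPR43 KO was -4.46.

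Farther along the same cluster, Ccl12 and Ccl8 did not pass the test. Ccl12, a Ccr2 ligand of mice, had signals of 131 and 217 in GPR41 KO, while the library labelled GPR43 KO replicate 1 had 162 and GPR43 KO replicate 2 had 84.1, against 166 and 351 in WT. The GPR41 KO arrays overlapped with WT, and both GPR43 KO arrays lay below WT by a small margin. Its log2 fold change in GPR41 KO was -0.48 (95% interval -1.44 to 0.49, limma adjusted p = 0.593), and its value in GPR43 KO was -0.94 (-1.91 to 0.02, adjusted p = 0.261). Without WT replicate 2 the value in GPR41 KO turned to 0.023, and the value in GPR43 KO was -1.35 when its labelled replicate 1 was left out.

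Ccl8, which in mice acts through Ccr8, had signals of 973 and 1103 in GPR41 KO, while the library labelled GPR43 KO replicate 1 had 627 and GPR43 KO replicate 2 had 467, against 691 and 705 in WT. Both GPR41 KO arrays lay above WT and both GPR43 KO arrays below it, and the WT arrays differed by only 1.02-fold. The log2 fold change was 0.56 ± 0.18 in GPR41 KO (limma adjusted p = 0.123) and -0.36 ± 0.18 for GPR43 KO (adjusted p = 0.303), so neither passed the test. With the labelled GPR43 KO replicate 1 left out, the GPR43 KO value was -0.56. Its receptor Ccr8 had weak signals in every array, from 1.74 to 16.9, below the pseudocount of 18.

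Ccl3 and Ccl4 are the macrophage inflammatory proteins 1-alpha and 1-beta, and Ccl3 binds Ccr1. Ccl3 had signals of 1.57 and 3.54 in GPR41 KO, while the library labelled GPR43 KO replicate 1 had 15.2 and GPR43 KO replicate 2 had 2.03, against 2856 and 5542 in WT. It thus stood at or below the weakest 17.7% of probe sets in every knockout array and at the 94.1 and 96.9 percentiles in WT. With no filter Ccl3 had a log2 fold change of -7.61 in GPR41 KO (limma adjusted p = 0.000148). In GPR43 KO this was -7.28 (limma adjusted p = 0.000228), and -7.64 when fitted without the library labelled GPR43 KO replicate 1. Because the knockout signals are near background, the size moves with the pseudocount: it was -10.19 and -9.15 with a pseudocount of 1, and -5.77 and -5.66 with one of 72, in GPR41 KO and GPR43 KO. With a floor at the 20th percentile in place of the pseudocount it was -7.79 in both knockouts and the call was lost (limma adjusted p = 0.0733 in GPR41 KO and 0.0797 in GPR43 KO).

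Ccl4 had signals of 108 and 253 in GPR41 KO, while the library labelled GPR43 KO replicate 1 had 195 and GPR43 KO replicate 2 had 125, against 1330 and 3659 in WT. The knockout groups overlapped with each other and not with WT, whose arrays differed 2.75-fold, the widest WT spread among the genes that fell. Ccl4 fell to 7.25% of the WT mean in GPR41 KO (log2 -3.59 ± 0.49, limma adjusted p = 0.00436) and to 6.42% in GPR43 KO (log2 -3.67 ± 0.49, limma adjusted p = 0.00539). Leaving out the library labelled GPR43 KO replicate 1, the log2 fold change in GPR43 KO was -3.96.

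Ccl9 and Ccl6 are Ccr1 ligands of rodents whose genes are 9250 bases apart, and only Ccl9 passed the test. The stronger probe set of Ccl9 had signals of 2214 and 2159 in GPR41 KO, while the library labelled GPR43 KO replicate 1 had 2134 and GPR43 KO replicate 2 had 1990, against 4655 and 6573 in WT. The 4 knockout arrays were close to each other and all below WT. Ccl9 fell to 38.9% of the WT mean in GPR41 KO (log2 -1.33 ± 0.16, limma adjusted p = 0.00293) and to 36.7% in GPR43 KO (log2 -1.42 ± 0.16, limma adjusted p = 0.0031), or by 1.47 on the log2 scale without the library labelled GPR43 KO replicate 1. Its second probe set, fitted with all probe sets and no filter, fell by 1.45 in GPR41 KO and by 1.70 in GPR43 KO on the log2 scale (limma adjusted p = 0.00326 and 0.00275). In that fit 0.924% and 0.687% of all probe sets were called lower in GPR41 KO and GPR43 KO.

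Ccl6 had signals of 16029 and 19210 in GPR41 KO, while the library labelled GPR43 KO replicate 1 had 20193 and GPR43 KO replicate 2 had 18924, against 15877 and 16867 in WT. The GPR41 KO arrays overlapped with WT and the GPR43 KO arrays lay slightly above it. The log2 fold change was 0.10 in GPR41 KO (95% interval -0.20 to 0.41, limma adjusted p = 0.732), which turned to -0.030 without GPR41 KO replicate 2, and 0.26 in GPR43 KO (-0.05 to 0.56, adjusted p = 0.329), or 0.21 with its labelled replicate 1 left out. Both intervals exclude a fall of the size seen in Ccl9. The second probe set of Ccl6 had log2 fold changes of 0.11 and 0.12 in GPR41 KO and GPR43 KO.

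**Figure D2:**
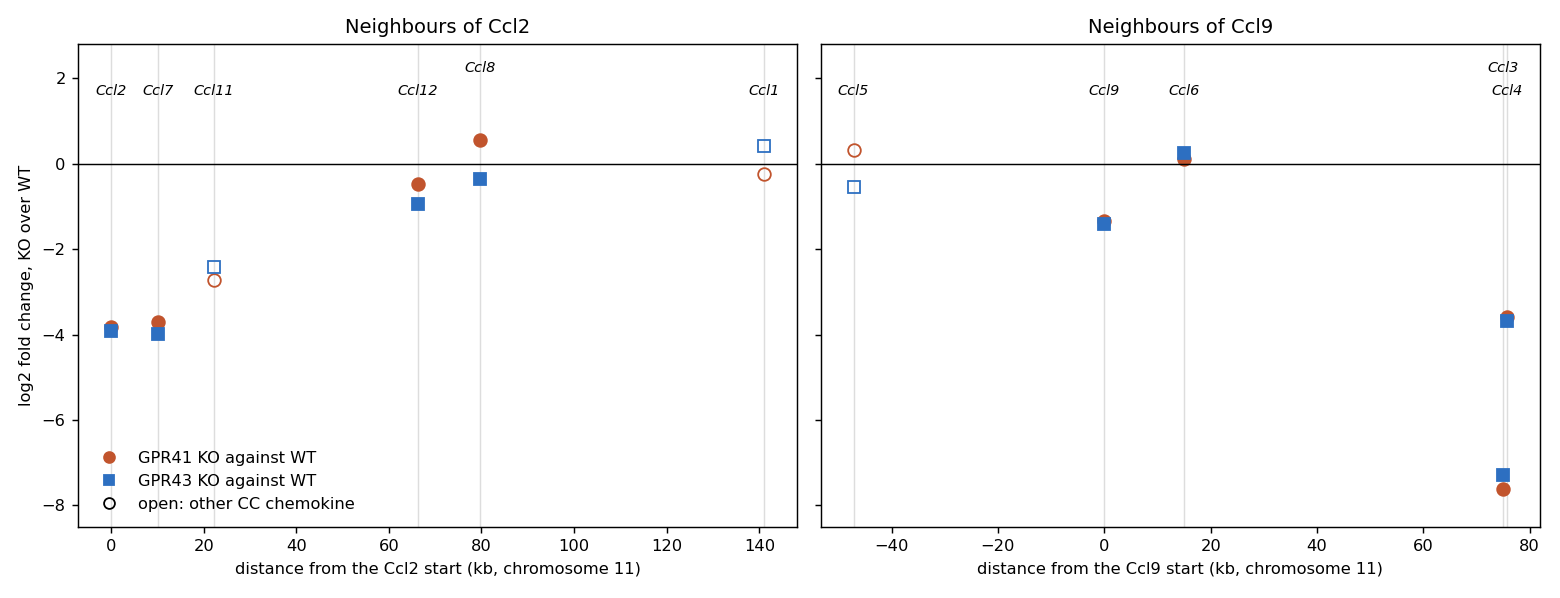
Log2 fold change against WT (y axis) at the distance in kb of each gene from the start of Ccl2 (left) or Ccl9 (right), with circles for GPR41 KO, squares for GPR43 KO, filled marks for the 10 genes and open marks for other CC chemokines. Ccl2, Ccl7 and Ccl11 lie at or below -2.41 and Ccl12 and Ccl8 between -0.94 and 0.56, and on the right Ccl6, at 0.10 and 0.26, lies between Ccl9 and Ccl3.

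Of the receptors, Ccr1 fell and Ccr2 did not pass the test. The stronger probe set of Ccr1 had signals of 192 and 163 in GPR41 KO, while the library labelled GPR43 KO replicate 1 had 265 and GPR43 KO replicate 2 had 215, against 799 and 1191 in WT. The GPR43 KO arrays lay above the GPR41 KO arrays, and all 4 lay below WT. Ccr1 fell to 17.8% of the WT mean in GPR41 KO (log2 -2.35 ± 0.24, limma adjusted p = 0.00128) and to 24.2% in GPR43 KO (log2 -1.95 ± 0.24, limma adjusted p = 0.00418), or by 2.09 without the library labelled GPR43 KO replicate 1. Its second probe set was weak in every array, from 28.1 to 51.7, and did not pass the test (log2 -0.01 in GPR41 KO and -0.52 in GPR43 KO). With the mean over both probe sets the log2 fold change of Ccr1 was -1.18 in GPR41 KO and -1.23 in GPR43 KO, still past the threshold.

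Ccr2 is read by 4 probe sets. The strongest had signals of 84.5 and 130 in GPR41 KO, while the library labelled GPR43 KO replicate 1 had 137 and GPR43 KO replicate 2 had 143, against 305 and 199 in WT. All knockout arrays lay below WT, and here WT replicate 1 was the higher WT array, unlike in the genes that fell. The log2 fold change was -1.11 in GPR41 KO (95% interval -1.82 to -0.39, limma adjusted p = 0.0908) and -0.75 for GPR43 KO (-1.46 to -0.03, adjusted p = 0.231), or -0.72 with its labelled replicate 1 left out.

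Another probe set of Ccr2 gave 76.8 and 77.0 in GPR41 KO, while the library labelled GPR43 KO replicate 1 had 90.1 and GPR43 KO replicate 2 had 89.7, against 260 and 230 in WT. Its groups did not overlap and its arrays agreed closely within each group. With all probe sets in the fit it had log2 fold changes of -1.47 and -1.28 in GPR41 KO and GPR43 KO, and of the others 1 had -1.90 and -1.77 and 1 had -0.22 and -0.23, none past the threshold. With the mean over the probe sets Ccr2 passed in GPR41 KO (log2 -1.17, limma adjusted p = 0.0431) and not in GPR43 KO (-1.01, adjusted p = 0.0804).

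**Figure D3:**
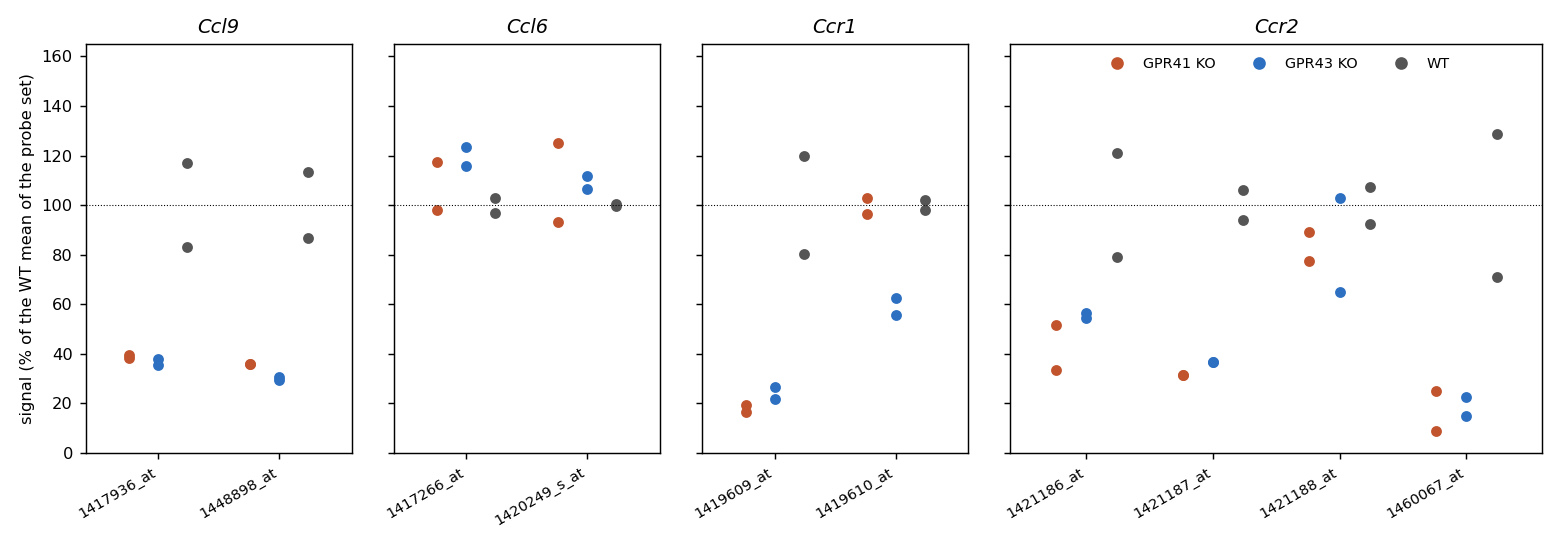
Signal of each probe set of Ccl9, Ccl6, Ccr1 and Ccr2 in every array, as a percentage of that probe set's WT mean (dotted line), with GPR41 KO, GPR43 KO and WT from left to right. Both probe sets of Ccl9 lie well below the WT mean in all 4 knockout arrays, while the weaker probe set of Ccr1 does not separate GPR41 KO from WT.

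Over all 10 genes, both GPR41 KO arrays lay below both WT arrays in 7 and above them in 1, Ccl8. Among all genes, with no filter, this held for 23.9% and 20.9%. Both GPR43 KO arrays lay below both WT arrays in 9 genes and above them in 1, Ccl6, against 20.8% and 23.8% of all genes. The median log2 fold change of the 10 genes with no filter was -1.84 in GPR41 KO and -1.68 in GPR43 KO, and that of all genes -0.014 and 0.022.

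**Figure D4:**
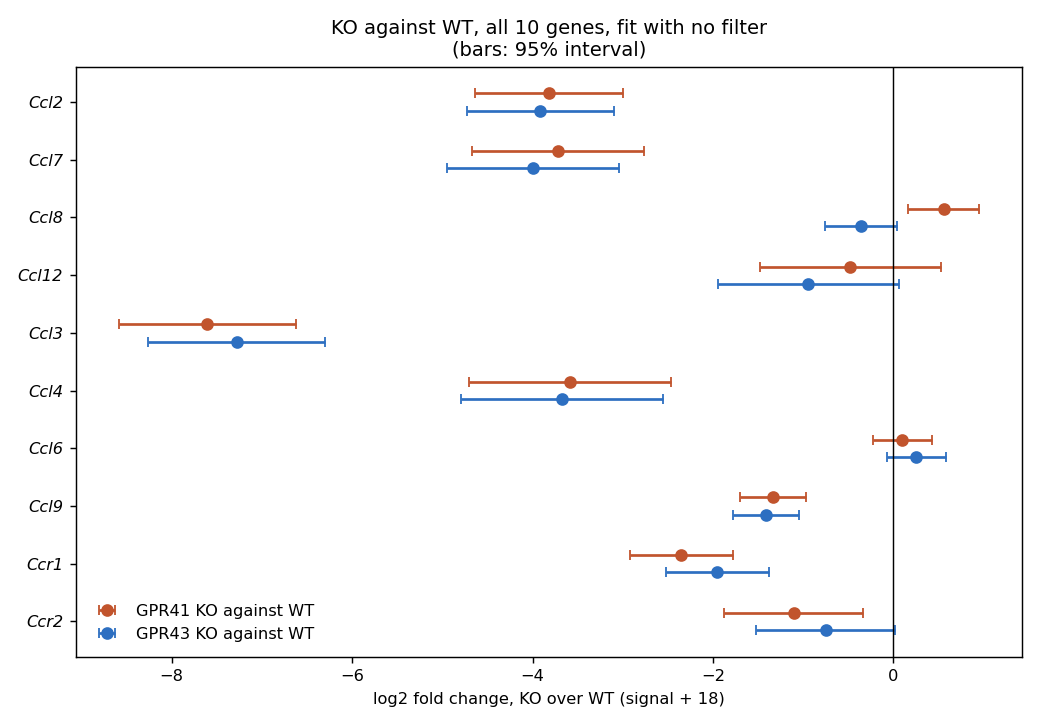
Log2 fold change (x axis) of each of the 10 genes in GPR41 KO (upper mark) and GPR43 KO (lower mark), each against WT, from the fit with no filter, with bars for the 95% interval. The values run from -7.61 for Ccl3 to 0.56 for Ccl8 in GPR41 KO, and the intervals of Ccl12 and Ccl6 include 0 in both knockouts.

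The fitted sizes moved with the WT array that was kept. For the 5 genes that fell, the range over leaving out any 1 array was -4.42 to -3.22 for Ccl2, -4.19 to -3.24 for Ccl7, -4.31 to -2.86 for Ccl4, -1.58 to -1.08 for Ccl9 and -2.63 to -2.07 for Ccr1 in GPR41 KO. In each of these ranges the lowest value came without WT replicate 1 and the highest without WT replicate 2. The same held in GPR43 KO, with ranges of -4.51 to -3.32, -4.48 to -3.52, -4.40 to -2.95, -1.66 to -1.17 and -2.23 to -1.67. All 5 genes stayed past the threshold in each case, with a largest limma adjusted p of 0.0349 in GPR41 KO and 0.0399 in GPR43 KO, both for Ccl4. A fit without 1 array of a group assumes that its lone array varies like the other groups.

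No gene of the 10 differed between the knockouts at the threshold. Of all 10916 genes 0 were called in GPR43 KO against GPR41 KO (limma), and 5.46% had an unadjusted p under 0.05. Ccl8 came nearest among the 10 genes. Its mean was 547 in GPR43 KO and 1038 in GPR41 KO, with a log2 fold change of -0.91 ± 0.18 (95% interval -1.31 to -0.51, limma unadjusted p = 0.00065, adjusted p = 0.66), or -1.12 with the labelled GPR43 KO replicate 1 left out. The other intervals were -0.90 to 0.71 for Ccl2, -1.21 to 0.64 for Ccl7, -1.43 to 0.50 for Ccl12, -1.20 to 1.03 for Ccl4, -0.15 to 0.46 for Ccl6, -0.46 to 0.29 for Ccl9, -0.15 to 0.95 for Ccr1 and -0.36 to 1.07 for Ccr2. Differences of up to those bounds therefore remain possible for genes that fell in both knockouts. The GPR43 KO arrays lay below the GPR41 KO arrays for Ccl8 and Ccl9 and above them for Ccr1 and Ccr2, against 14.1% lower and 21.8% higher among all genes. The value of Ccr1 (0.40) turned to -0.055 with the mean over its probe sets.

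Other CC chemokines were set beside these 10. Of 12 listed, 10 had a probe set here and 4 were tested, of which 1 fell, 1 rose and 2 did not pass in each knockout. Ccl11, the eosinophil attractant eotaxin, lies between Ccl7 and Ccl12 (82057832 to 82062955). It had signals of 188 and 170 in GPR41 KO, while the library labelled GPR43 KO replicate 1 had 256 and GPR43 KO replicate 2 had 202, against 887 and 1870 in WT. Ccl11 fell by 2.73 in GPR41 KO and by 2.41 in GPR43 KO on the log2 scale (limma adjusted p = 0.00227 and 0.00537), so in that cluster 3 adjoining genes fell and Ccl12 and Ccl8, next along the chromosome, did not pass.

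Ccl28, a mucosal chemokine made by colon epithelium, moved the other way. It had signals of 3289 and 3941 in GPR41 KO, while the library labelled GPR43 KO replicate 1 had 3579 and GPR43 KO replicate 2 had 4293, against 2173 and 2157 in WT. Ccl28 rose by log2 0.73 in GPR41 KO and 0.85 in GPR43 KO (limma adjusted p = 0.0214 and 0.0136). Ccl5, a T cell and monocyte attractant that lies just before Ccl9, had log2 fold changes of 0.33 and -0.54 and did not pass, and Ccl25 had 0.00 and 0.12. Ccl1, the gene after Ccl8, was weak in every group, with means of 10.8 in GPR41 KO, 31.3 in GPR43 KO and 15.9 in WT.

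Of 11 other CC receptors and scavengers with a probe set here, 4 were tested. The chemerin-binding receptor Ccrl2 fell in both knockouts (log2 -1.45 in GPR41 KO and -1.59 in GPR43 KO, limma adjusted p = 0.0341 and 0.0285), a call lost in both with no filter (adjusted p = 0.0613 and 0.0507). The endothelial chemokine scavenger Ackr1 fell in GPR41 KO (-1.32, adjusted p = 0.0258) and did not pass in GPR43 KO (-0.95, adjusted p = 0.0899). Ccr10, the receptor of Ccl28, had log2 fold changes of 1.62 and 1.69 that did not pass. Its WT signals were 124 in replicate 1 and 17.5 in replicate 2, the latter below the pseudocount of 18, against 188 to 238 in the knockouts. The size of its fold change thus rests in large part on 1 WT array.

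Genes that induce or restrain CC chemokine genes moved in part. In GPR41 KO, 4 of 19 tested fell, 1 rose and 14 did not pass, and in GPR43 KO 6 fell, 0 rose and 13 did not pass. The cytokine Il1b, an inducer of Ccl2, had signals of 189 and 166 in GPR41 KO, while the library labelled GPR43 KO replicate 1 had 252 and GPR43 KO replicate 2 had 199, against 9023 and 17120 in WT. Il1b thus fell by 5.99 on the log2 scale for GPR41 KO and fell by 5.69 for GPR43 KO. With values for GPR41 KO and then GPR43 KO, the transcription factor Cebpb (-2.47 and -2.32), the cytokine signalling inhibitor Socs3 (-3.11 and -2.63) and the NF-kB inhibitor Tnfaip3 (-0.78 and -0.79) fell in both knockouts. Fos, a part of AP-1, rose in GPR41 KO (1.02), and the adaptor Myd88 (-0.84) and the RNA-destabilising Zfp36 (-0.85) fell in GPR43 KO. The calls of Myd88 and Zfp36 were lost with no filter (limma adjusted p = 0.0618 and 0.0623). In that fit 6 of the 23 genes with a probe set fell in each knockout, and 1 rose in GPR41 KO. Il6, Il1a, Tnf and Ifng were left out by the filter on weak genes. Il6 had signals of 1.05 to 24.9 in the knockouts, against 607 and 1529 in WT. Il1a had 1.63 to 16.3, against 455 and 800. Tnf had 13.8 to 80.7, against 201 and 254. Ifng had 5.32 to 34.1, overlapping with WT (21.7 and 25.1).

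Downstream of the receptors, 4 of 17 tested signalling genes fell in GPR41 KO and 3 in GPR43 KO, and none rose. The leukocyte integrin chain Itgb2 (-2.60 and -2.33), the leukocyte GTPase Rac2 (-2.29 and -2.32) and the kinase Fgr (-1.58 and -1.48) fell in both, and the arrestin Arrb2 (-1.55) in GPR41 KO. The calls of Fgr were lost with no filter (limma adjusted p = 0.0538 for GPR41 KO and 0.0734 for GPR43 KO). The remaining tested genes of this list did not pass, and no gene of any list was called in GPR43 KO against GPR41 KO.

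Some markers of the cells that use or make these chemokines moved along with them, and their part in the results was not tested. Of 21 tested monocyte and macrophage markers, 12 fell in GPR41 KO and 11 in GPR43 KO, none rose, and 9 and 10 did not pass. The list summed to 53333 to 56125 in GPR41 KO, 56531 to 62833 in GPR43 KO and 71831 to 104793 in WT. No marker was at 0, and Plac8 was the largest part of each sum. Its signals in all knockout arrays lay above both WT arrays. Plac8 had 36003 and 34376 in GPR41 KO, against 28068 and 33444 in WT. For Plac8 the library labelled GPR43 KO replicate 1 had 37368 and GPR43 KO replicate 2 had 33566. Chil3 (log2 -5.35 and -4.57), Cd300lf (-3.26 and -2.89), Fcer1g (-2.81 and -2.34), Fcgr3 (-2.32 and -2.03) and Cd14 (-2.29 and -2.03) fell in both knockouts. In contrast, the arrays of Mrc1, C1qa, C1qc and Ms4a7 overlapped with WT in both knockouts. Cx3cr1 had signals of 148 and 309 in GPR41 KO, against 210 and 201 in WT. For Cx3cr1 the library labelled GPR43 KO replicate 1 had 278 and GPR43 KO replicate 2 had 244. With no filter, 12 of 22 markers fell in GPR41 KO and 10 in GPR43 KO.

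Of the 14 neutrophil markers with a probe set, 10 fell in each knockout with no filter, and Cxcr2, Camp, Elane and Mpo did not pass. Elane had log2 fold changes of 1.04 and 0.75, and Mpo of -0.34 and -0.07. The filter kept 9 of the 14, among them genes weak in the knockouts and high in WT, and those 9 fell in both knockouts. The list summed to 1229 to 1290 in GPR41 KO, 1323 to 3488 in GPR43 KO and 78117 to 141458 in WT, the high end in GPR43 KO being the library labelled GPR43 KO replicate 1. Of 13 tested fibroblast and endothelial markers, 2 fell in GPR41 KO (Selp, -2.48, and Pecam1, -0.87) and 1 in GPR43 KO (Selp, -2.23). Eosinophil and mast cell markers had no call in either knockout, and the sums of each knockout overlapped with those of WT (893 to 1145 in GPR41 KO, 1164 to 1339 in GPR43 KO and 919 to 1226 in WT). T and NK cell markers summed to 1666 to 1947 in GPR41 KO, 1617 to 1681 in GPR43 KO and 1099 to 1103 in WT, and of 3 tested Zap70 rose in both knockouts. Dendritic cell markers had no fall among 5 tested, and Cd74 (0.78) rose in GPR43 KO, a call lost with no filter (limma adjusted p = 0.0677). Among 7 tested B and plasma cell markers Jchain (1.18) rose in GPR41 KO, also lost with no filter (limma adjusted p = 0.0753). Of 14 tested epithelial markers, Aqp8 (2.03 and 1.83) rose in both knockouts and Vil1 (0.58) in GPR41 KO. The call of Vil1 was lost with no filter (limma adjusted p = 0.0640). In each knockout, both arrays lay above both WT arrays for 12 of the 14. Among all genes, with no filter, this held for 20.9% in GPR41 KO and 23.8% in GPR43 KO.

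**Figure D5:**
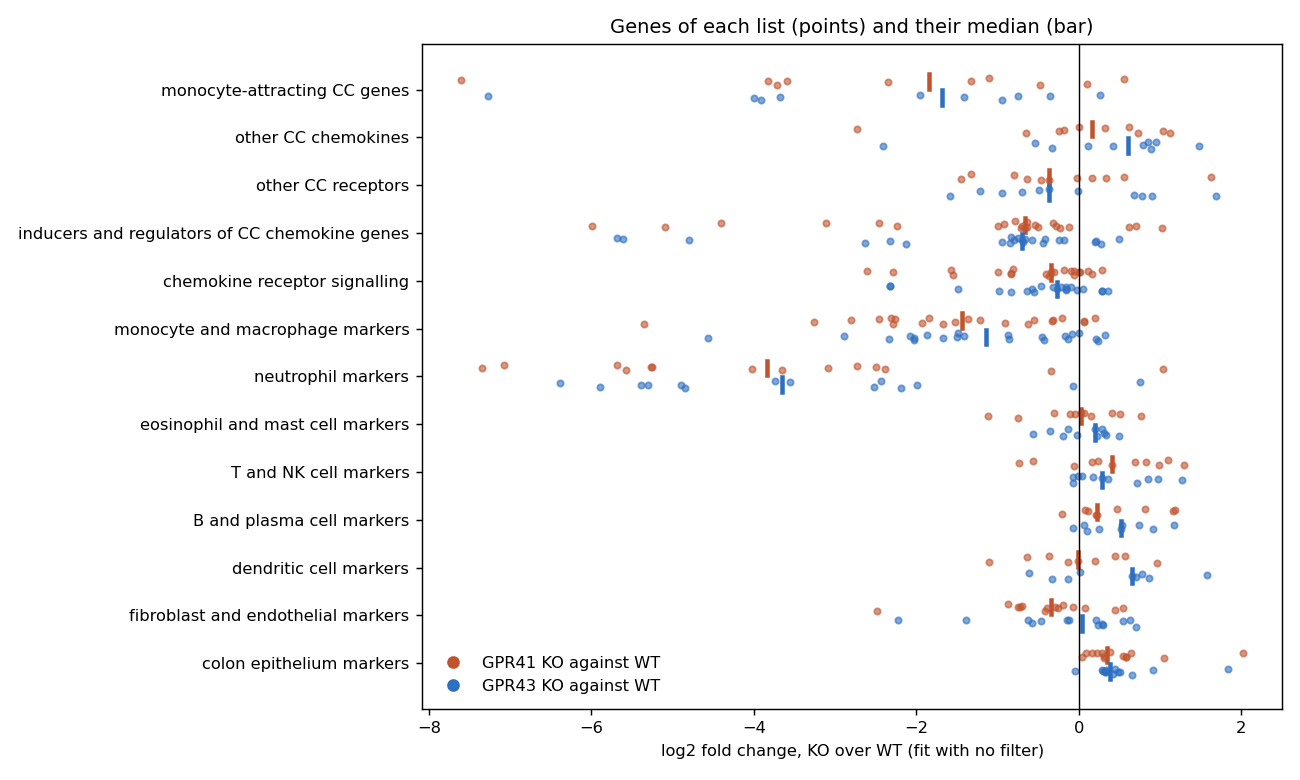
Log2 fold change of each gene with a probe set (points) and its list's median (bars), by list, for GPR41 KO and GPR43 KO against WT from the fit with no filter. The medians of the 10 genes lie at -1.84 and -1.68, between those of the neutrophil markers (-3.84 and -3.65) and of the monocyte and macrophage markers (-1.44 and -1.14).

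For each tested gene of the 10, the genes whose log2 values came closest to its own over the 6 arrays were listed, after centring each gene on its mean. The nearest to Ccl2 and Ccl4 was Srgn, a granule proteoglycan of blood cells, with root mean square log2 differences of 0.25 and 0.31. The nearest to Ccl7 was Trem1, a receptor of neutrophils and monocytes, at 0.30, and Trem1 was second to both others. Ccr1 had the Fc receptor Fcgr3 (0.13), the glucose transporter Slc2a3 (0.13) and the phagosomal transporter Slc11a1 (0.14). Ccl9 had Slc10a6 (0.094), Scara5 (0.11) and Tmem100 (0.11), and shared none of these with Ccl2, Ccl4 or Ccl7. The log2 values were centred but not scaled, so the size of a change decides which genes lie near. The SD over the arrays was 0.73 for Ccl9, against 2.04 for Ccl2, 1.97 for Ccl4 and 2.05 for Ccl7. The lack of shared genes therefore cannot tell if the pattern of Ccl9 differs in shape. Ccl8 had the chaperone Hspa13 (0.089), which shows the same order of groups, with signals of 953 and 1072 in GPR41 KO, while the library labelled GPR43 KO replicate 1 had 616 and GPR43 KO replicate 2 had 499, against 723 and 819 in WT. The genes that differ little between arrays, such as Ccl6, have small differences to many genes (Tacc2, 0.028).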

How the data were processed

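Total RNA (2 µg per sample, Trizol and a Qiagen kit, per the labels) from 6 colon samples was labelled and hybridised to 1 array each. The deposited values are a signal intensity per probe set, made by the authors with MAS5, per the submitters' processing notes; no source used here gives its version. They are linear and already scaled between arrays, and MAS5 signals near background are unstable, as are their ratios. Symbols came from the platform annotation (34958 of 45101 probe sets with 1 symbol, 932 with several, 9211 with none) and positions and promoters from RefSeq GRCm38.p6.

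The probe set with the highest mean log2 signal was kept per gene, and genes above the 40th percentile of that mean (10916 of 18193) were tested. This filter favours genes high in 1 group. To every value 18 was added before log2 (the pseudocount, at the 20th percentile of the table), so fold changes are on the log2(signal + 18) scale and understate changes of weak genes. All 6 arrays entered 1 linear model with a mean for each group (limma 3.58.1, lmFit and eBayes with intensity trend, R 4.3.3), with 3 residual and 8.71 moderated degrees of freedom. Tests were two-sided, adjusted by Benjamini-Hochberg over all tested genes, threshold 0.05. SE and 95% intervals are from that fit. The number of arrays limits precision: an exact permutation test of 2 against 2 cannot go below p = 0.333. The procedure was tested on simulated data for GPR41 KO against WT, with 200 of 10916 genes shifted. It recovered 0% of them at a log2 shift of 0.5, 35.4% at 1 and 88.65% at 2, with 0, 2.7 and 8.9 false calls per draw. A gene that changed by 1 or less on the log2 scale can therefore fail to pass.

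The 10 genes, the lists and the tests were chosen with earlier results of these data known. Genes named were the 10 genes, the other CC chemokines and receptors, up to 6 genes with the smallest p per other list, genes in counts of 5 or fewer, and the 3 nearest in pattern. Of the monocyte and macrophage markers, some that did not lie below WT were named as well. Alternatives covered the pseudocount, a floor, filters, scaling, probe set choice, the intensity trend, a replicate block and leaving out each array. Array images and detection calls were not used here.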

Additional observations from a re-analysis of the deposited data

Results flagged for a closer look

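Ccl8 was the 1 gene of the 10 whose arrays moved in opposite directions in the knockouts. Taken alone, a rise in GPR41 KO with no overlap with WT was found in 20.9% of all genes with no filter. A fall in GPR43 KO with no overlap was found in 20.8%. The share of all genes with the 2 together was not counted, so there is no background for this pattern of Ccl8. Both GPR43 KO arrays (627 for the library labelled GPR43 KO replicate 1, 467 for replicate 2) lay below both WT arrays (691 and 705), and both GPR41 KO arrays (973 and 1103) lay above them. The difference between the knockouts was -0.91 on the log2 scale, GPR43 KO minus GPR41 KO. It had an unadjusted p of 0.00065 and an adjusted p of 0.66 in limma, so it did not pass the correction over all genes. Leaving out any 1 array it ranged up to -0.71, and its lowest value, -1.12, was found without the library labelled GPR43 KO replicate 1. Over all alternatives its adjusted p ranged between 0.179, with median centring, and 0.976.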

How the results depend on the processing

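The 5 genes that fell in each knockout were called under all 18 alternatives except the filter at the 60th percentile, which left 3 of the 10 genes in the test and called 1 of them, Ccl9, in each knockout. The count lay at 5 to 5 in both knockouts and at 0 to 0 between them when any 1 array was left out. Of 516 values of single genes, 504 kept direction and side of the threshold, 1 gained a call (Ccr2 in GPR41 KO, -1.17, mean over probe sets) and 2 lost it (Ccl3, -7.79 in both knockouts, a floor). Directions turned for 9 uncalled values. Over leaving out any 1 array, Ccl12 in GPR41 KO ranged from -0.98 to 0.023 (turned without WT replicate 2) and Ccl6 in GPR41 KO from -0.030 (without GPR41 KO replicate 2) to 0.23. In GPR43 KO against GPR41 KO, Ccl2 ranged from -0.29 to 0.11 and Ccl4 from -0.64 to 0.47, each turned without GPR41 KO replicate 2 or GPR43 KO replicate 2. Ccl7 ranged from -0.75 to 0.18 (turned without GPR43 KO replicate 2) and Ccl3 from -0.036 (without the library labelled GPR43 KO replicate 1) to 0.69. Ccr1 turned to -0.055 with the mean over probe sets. The causes were not tested.

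Deviations of arrays with the same replicate number had correlations of 0.107 for GPR41 KO with WT and -0.271 for GPR43 KO with WT. For GPR43 KO with GPR41 KO the correlation was -0.0537, each over 10916 genes. With 2 arrays a group these values cannot tell if the numbers pair the samples, and the labels do not say. With the replicate block 5, 5 and 0 of the 10 genes were called in the 3 comparisons, and 401, 295 and 0 of all genes, against 541, 432 and 0 without it. With the crossed pairing, added after seeing the data, these were 5, 5 and 0, and 820, 705 and 0. Over all genes, called genes in GPR41 KO and GPR43 KO numbered 360 and 217 with no intensity trend, 335 and 280 with the filter at the 60th percentile, and 422 and 298 with the mean over probe sets. They ranged from 195 (without GPR41 KO replicate 1) to 892 (without WT replicate 1) in GPR41 KO, and from 129 (without GPR43 KO replicate 2) to 761 (without WT replicate 1) in GPR43 KO.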
